A study of Mus musculus with 16 samples.

Results

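The 9 genes described here encode the receptor of interferon gamma (IFNγ), the kinases attached to it and members of the STAT family: Ifngr1, Ifngr2, Jak1, Jak2, Stat2, Stat3, Stat4, Stat5a and Stat6. They were chosen by name from 21938 protein-coding genes. Their H3K27ac peaks are those with a summit within 50 kb of any annotated start site (mm10), and these fell in 110 of the 55218 regions found when the peaks of all lists were merged wherever they overlapped by at least 1 bp. A region was counted when at least 1 of its peaks had its summit in the window, and its values then came from all of its peaks.

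IFNγ binds a receptor built from IFNGR1, which holds the ligand, and IFNGR2, which completes the complex. JAK1 sits on IFNGR1 and JAK2 on IFNGR2; once activated they phosphorylate the receptor and the STAT proteins that dock on it, and STAT dimers enter the nucleus and bind gamma-activated site (GAS) elements. The same kinases and STATs serve many other cytokines: STAT2 acts with IRF9 in type I interferon signaling, STAT3 downstream of interleukin-6 and interleukin-10, STAT4 downstream of interleukin-12, STAT5A downstream of GM-CSF and interleukin-3, and STAT6 downstream of interleukin-4. H3K27ac is a histone acetylation left by p300 and CBP at active promoters and enhancers.

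The cells were primary bone marrow-derived macrophages (BMDMs) of C57BL/6 mice aged 8 to 12 weeks, grown in culture. They were left untreated (Control), given 100 ng/mL IFNγ for 1 h (IFNγ), given the PARP inhibitor PJ34 at 20 µM (PJ34), or given PJ34 from 1 h before the IFNγ (IFNγ+PJ34). PJ34 blocks PARP-1 and related enzymes and is not specific to one of them. Each condition had 2 ChIP and 2 input samples, 16 in all, and the deposited file of a condition is a single list of peaks called in both ChIP samples, so no value below carries a replicate error and no difference could be tested. The lists held between 40708 peaks (IFNγ) and 44090 peaks (PJ34), with a median fold enrichment of 6.12 in Control, 5.51 with IFNγ, 5.26 with PJ34 and 6.32 with IFNγ+PJ34. Read depth is unknown from these files. Of 10 macrophage marker genes, between 8 and 9 had a promoter peak in each list, while none of 5 T cell, 4 fibroblast or 3 erythroid markers had one. Of the other cell types, 1 of 4 B cell markers (Ms4a1), up to 1 of 5 neutrophil markers (S100a8) and up to 2 of 3 dendritic cell markers (Zbtb46 and Xcr1) had one.

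All 9 genes had an H3K27ac peak within 1 kb of a start site in every list, against 45.4% of all protein-coding genes. Fold enrichment is the pileup of the ChIP over the local background as the authors' peak caller wrote it, and the score percentile is the place of a peak among all peaks of its own list. In Control the promoters ranked from 107-fold at Ifngr2 and 78.4-fold at Stat3, through Ifngr1 at 76.1, Stat6 at 66.7, Jak1 at 66.3, Jak2 at 54.5, Stat2 at 53.0 and Stat5a at 27.7, down to 7.27-fold at Stat4. Stat4 lay near the middle of the Control list, at percentile 52.4, and the other 8 from percentile 84.2 (Stat5a) to 99.9 (Ifngr2). No spread is known for these levels, so the order of close neighbours such as Stat6 and Jak1 is a description only.

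**Figure D1:**
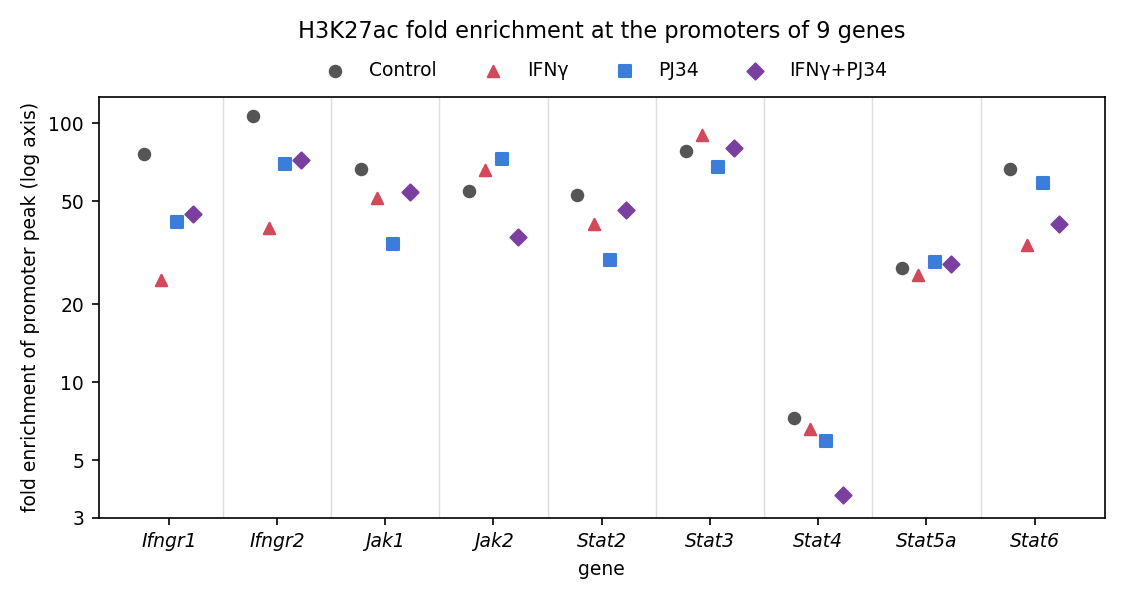
H3K27ac fold enrichment (log axis) of the promoter peak of each of the 9 genes, 1 symbol per condition list; no error can be drawn, since each list was made from both replicates. Ifngr1 and Ifngr2 are highest in Control and lowest in IFNγ, Jak2 is lowest in IFNγ+PJ34, and Stat4 stays under 8 in every list.

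Ifngr1 (ENSMUSG00000020009.13, chr10:19591949-19610229, plus strand) encodes the ligand-binding chain. Its promoter peak had a fold enrichment of 76.1 in Control, 24.9 with IFNγ, 41.6 with PJ34 and 44.5 with IFNγ+PJ34. Control stood above the other lists and IFNγ below them, and the peak moved from percentile 98.7 of the Control list to 93.0 of the IFNγ list. Among all genes with a promoter peak, Ifngr1 stood at percentile 96.8 in Control, 61.8 with IFNγ, 78.8 with PJ34 and 90.9 with IFNγ+PJ34.

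Ifngr2 (ENSMUSG00000022965.8, chr16:91547072-91565623, plus strand) encodes the chain that carries JAK2. Its promoter peak had a fold enrichment of 107 in Control, 39.4 with IFNγ, 69.4 with PJ34 and 71.9 with IFNγ+PJ34. The order of the lists was that of Ifngr1. Its gene percentile was 99.7 in Control, 82.1 with IFNγ, 96.2 with PJ34 and 98.9 with IFNγ+PJ34.

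The promoter sequences of the receptor genes are shown because these promoters had the lowest IFNγ to Control ratios of the 9, together with that of Jak2, whose promoter was higher in IFNγ, and that of Stat4 at the start site that carried the peak, which had the lowest enrichment. They run 5′ to 3′ on the strand of the gene, from 250 bases before to 50 bases after the RefSeq start (GRCm38, the build of the peaks), and capitals mark CpG dinucleotides.
Ifngr1, chr10:19591699-19591998: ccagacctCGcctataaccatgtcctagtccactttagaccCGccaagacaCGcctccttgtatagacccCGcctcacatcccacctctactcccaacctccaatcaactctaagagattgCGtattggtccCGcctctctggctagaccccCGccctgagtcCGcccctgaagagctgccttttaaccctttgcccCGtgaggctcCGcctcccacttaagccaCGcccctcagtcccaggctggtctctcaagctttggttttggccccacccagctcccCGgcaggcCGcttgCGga
Ifngr2, chr16:91546809-91547108: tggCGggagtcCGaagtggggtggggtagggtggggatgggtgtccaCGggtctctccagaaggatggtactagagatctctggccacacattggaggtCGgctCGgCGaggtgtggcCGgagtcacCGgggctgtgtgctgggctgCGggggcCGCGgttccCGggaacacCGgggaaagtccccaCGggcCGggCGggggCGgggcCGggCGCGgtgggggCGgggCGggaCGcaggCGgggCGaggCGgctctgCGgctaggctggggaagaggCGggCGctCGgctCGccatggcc
Jak2, chr19:29251553-29251852: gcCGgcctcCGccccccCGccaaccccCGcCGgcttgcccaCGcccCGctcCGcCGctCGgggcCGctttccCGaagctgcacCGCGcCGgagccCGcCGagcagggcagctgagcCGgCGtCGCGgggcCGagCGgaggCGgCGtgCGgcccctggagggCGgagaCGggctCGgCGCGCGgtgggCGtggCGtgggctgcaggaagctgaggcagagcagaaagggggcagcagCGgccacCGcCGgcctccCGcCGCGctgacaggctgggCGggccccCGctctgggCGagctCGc
Stat4, chr1:52007990-52008289: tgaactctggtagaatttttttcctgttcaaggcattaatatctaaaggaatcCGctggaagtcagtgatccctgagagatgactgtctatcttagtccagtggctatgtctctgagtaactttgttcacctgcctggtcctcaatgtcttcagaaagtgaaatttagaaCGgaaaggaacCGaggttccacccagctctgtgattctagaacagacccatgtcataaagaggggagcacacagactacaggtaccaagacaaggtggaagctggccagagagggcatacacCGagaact
The number of CpGs was 14 at Ifngr1, 31 at Ifngr2, 44 at Jak2 and 4 at this Stat4 start, beside a median of 7 over 32851 mouse promoter windows. The Jak2 window was 81.0% G and C. RefSeq gave 11 such windows for the 9 genes, and none held a GAS match, TTCNNNGAA, a pattern that reads the same on both strands; 8.30% of all windows held one.

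The ratios at the promoters were read against those of all genes, since the lists differed in scale. The IFNγ to Control ratio was 0.327 at Ifngr1, 0.367 at Ifngr2 and 0.507 at Stat6, beside a median of 0.750 over 10268 genes with a promoter peak in both lists. The other 6 lay between 0.770 (Stat2) and 1.21 (Jak2). Thus 3 of 9 promoters were over 1.5 times lower in IFNγ, beside 37.7% of all genes, and 0 were over 1.5 times higher, beside 4.67%. The median log2 ratio was -0.36 for the 9 genes and -0.41 for all genes, so the group as a whole did not stand apart, while its members ranged from -1.61 to 0.27. Less the median of all genes, 6 promoters lay above and 3 below, and the difference was -1.20 at Ifngr1, -1.03 at Ifngr2, -0.57 at Stat6, 0.60 at Stat3 and 0.68 at Jak2 on the log2 scale. The sign turned with this centring at 4 genes, Jak1 (0.05), Stat2 (0.03), Stat4 (0.27) and Stat5a (0.31).

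PJ34 alone was set against Control in the same way. In this comparison 4 of 9 promoters were over 1.5 times lower, namely Jak1 (ratio 0.516), Ifngr1 (0.547), Stat2 (0.558) and Ifngr2 (0.647), beside 19.4% of all genes, and 0 were over 1.5 times higher, beside 8.83%. The median log2 ratio was -0.29, beside -0.10 over all genes. Jak2 was the highest of the 9, at 1.34.

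With IFNγ present in both lists, IFNγ+PJ34 over IFNγ, the receptor promoters were 1.83 times (Ifngr2) and 1.79 times (Ifngr1) higher with PJ34, and those of Jak2 (ratio 0.553) and Stat4 (0.556) were lower. These 2 higher and 2 lower promoters of 9 stand beside 17.5% and 20.7% of all genes. With PJ34 present in both lists, IFNγ+PJ34 over PJ34, Jak1 (1.59) and Stat2 (1.56) were over 1.5 times higher and Jak2 (0.498) and Stat4 (0.615) over 1.5 times lower, beside 9.84% and 37.9% of all genes. The receptor promoters differed little in that comparison, by a ratio of 1.07 at Ifngr1 and 1.04 at Ifngr2, where the median of all genes was 0.773. Ratios that use the same list are not independent of each other.

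The genes whose promoter was most like that of Ifngr1, by the distance between log2 fold enrichments over the 4 lists among 9937 genes, were Zadh2, with a distance of 0.257, and Serp1 and Eif2a, which share promoter peaks and each had a distance of 0.285. Zadh2 had 69.1 in Control, 25.2 with IFNγ, 35.9 with PJ34 and 43.6 with IFNγ+PJ34.

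Next, the whole windows were compared. Of the 110 regions, 42 were found in all 4 lists (38.2%, beside 38.9% of all regions), 15 in 3 lists, 19 in 2 lists and 34 in 1 list (30.9%, beside 35.2%). By position, 41 regions were intergenic, 46 intronic, 21 at promoters and 2 in exons of protein-coding genes. Of the 21 promoter regions 19 were in all 4 lists, against 11 of the 46 intronic ones. The same shares over all promoter and intronic regions are not given, so this contrast is not particular to these genes. A member was the nearest gene for 10 of the 21 promoter regions. For 69 of the 110 regions the nearest protein-coding start site was that of a member; the remainder lay closer to a neighbour such as Stat5b, Lrp1, Nemp1, Timeless or Cavin1.

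In the IFNγ list, 20 of the 89 peaks near the members (22.5%, exact Clopper-Pearson 95% interval 14.3 to 32.6) had no overlapping Control peak, beside 16.8% of all IFNγ peaks. These intervals cover counting error only and take peaks as independent, though neighbouring peaks are not. In the other direction, 27 of 82 Control peaks (32.9%, 22.9 to 44.2) had no overlapping IFNγ peak, beside 31.7% of all Control peaks. Both shares near the members were close to those of the whole lists. Of the PJ34 peaks, 27 of 97 (27.8%, 19.2 to 37.9) were absent from Control, beside 19.5%. Of the IFNγ peaks, 21 of 89 (23.6%, 15.2 to 33.8) were absent from IFNγ+PJ34, beside 24.1%. Of the IFNγ+PJ34 peaks, 19 of 98 (19.4%, 12.1 to 28.6) were absent from PJ34, beside 25.7%. All 5 intervals included the share of the whole list.

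**Figure D2:**
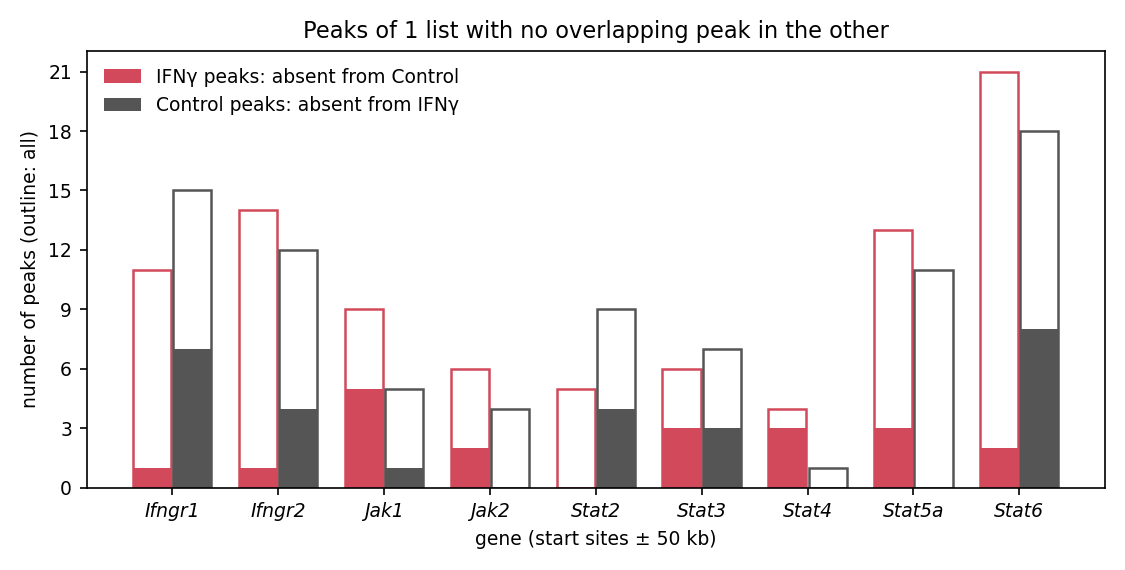
Number of peaks within 50 kb of the start sites of each gene (outlined bars) in the IFNγ list (red) and the Control list (grey), and how many of them (filled) had no overlapping peak in the other list. Jak1 had 5 of 9 IFNγ peaks absent from Control, and Ifngr1 had 7 of 15 and Stat6 8 of 18 Control peaks absent from IFNγ.

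Grouped by role, the receptor windows held 2 of 25 IFNγ peaks absent from Control (8.00%, 0.984 to 26.0) and 11 of 27 Control peaks absent from IFNγ (40.7%, 22.4 to 61.2). The kinase windows held 7 of 15 (46.7%, 21.3 to 73.4) and 1 of 9 (11.1%, 0.281 to 48.2). The STAT windows lay between them, with 11 of 49 (22.4%, 11.8 to 36.6) and 15 of 46 (32.6%, 19.5 to 48.0). Over the whole lists, the first of these shares was 16.8% and the second 31.7%. The intervals of the roles included them, except that of the kinases for the first share (21.3 to 73.4). Of those 7 kinase peaks, 5 lay near Jak1, and some were neighbours, so that they are fewer independent sites. The difference between roles was not tested. Many regions of the STAT windows were nearest to other genes. The STAT gene itself was nearest for 1 of 8 regions at Stat2, 2 of 15 at Stat5a and 5 of 19 at Stat6. It was nearest for 8 of 12 at Stat3 and for all 5 at Stat4.

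An IFNγ peak absent from Control lay within 50 kb of 8 of the 9 genes, Stat2 being the exception, where 25.9% of all protein-coding genes had one. That share covers all genes, whatever the number of peaks in their windows. The windows of the 9 genes held from 4 (Stat4) to 21 (Stat6) IFNγ peaks. A window with more peaks has more chances to hold an absent one, and no share here was matched for peak number. With summits within 10 kb the count of members was 3 of 9, beside 8.38% of all genes. Where Control peaks up to 1 kb away counted as shared it was 5 of 9, beside 17.1%. In the higher-scoring 50% of each list it was 3 of 9, beside 14.2%, and there 8.33% of the IFNγ peaks near the members were absent from Control, beside 13.7% of all. Most of these peaks were weak: 2 of 20 lay in the upper 50% of the IFNγ list. Of the 20, 14 (70.0%, 45.7 to 88.1) were also found in IFNγ+PJ34, beside 38.8% of all IFNγ peaks absent from Control, and 11 (55.0%, 31.5 to 76.9) in PJ34, beside 43.6%. Both lists held 7 of them, IFNγ+PJ34 alone held another 7, PJ34 alone held 4 and neither held 2. Several were neighbours, and the 20 peaks are fewer independent sites.

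The receptor windows were lower in IFNγ at most sites. Around Ifngr1, 15 regions were found, all of them nearest to Ifngr1, and the H3K27ac-covered length was 17.7 kb in Control, 7.82 kb in IFNγ, 11.9 kb in PJ34 and 12.5 kb in IFNγ+PJ34. The whole lists covered 52.6 Mb in Control, 42.5 Mb in IFNγ, 47.9 Mb in PJ34 and 44.1 Mb in IFNγ+PJ34. All 8 regions found in both IFNγ and Control had a lower fold enrichment in IFNγ, 4 of them by over 1.5 times, and 7 of the 8 lay below the median ratio of all regions. The region 21.3 kb upstream (chr10:19569879-19571981) had a fold enrichment of 25.4 in Control, 11.2 with IFNγ, 17.6 with PJ34 and 33.2 with IFNγ+PJ34. The region 7.4 kb upstream (chr10:19582504-19585207) had 17.4 in Control, 3.42 with IFNγ, 5.22 with PJ34 and 7.89 with IFNγ+PJ34. Its covered width was 2704 bp in Control, 398 bp with IFNγ, 1713 bp with PJ34 and 1738 bp with IFNγ+PJ34. The strongest regions not found in all lists were one 45.1 kb upstream (chr10:19546395-19546990), found in Control at 7.13 and in IFNγ+PJ34 at 5.43, and one 28.9 kb upstream (chr10:19562522-19563356), found at 4.52 in Control, 3.22 in IFNγ and 5.39 in PJ34. Another 4 regions were found in Control alone, with folds of 5.22 or less.

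Around Ifngr2, 14 regions were found, 10 of them nearest to Ifngr2 and 3 nearest to Ifnar1, which encodes a chain of the type I interferon receptor. The strongest besides the promoter lay 24.1 kb upstream (chr16:91521201-91528078) and had a fold enrichment of 57.0 in Control, 32.1 with IFNγ, 66.8 with PJ34 and 38.4 with IFNγ+PJ34. At this site the lists without IFNγ stood above those with it. The region 8.6 kb upstream (chr16:91537111-91539172) had 29.2 in Control, 9.33 with IFNγ, 16.8 with PJ34 and 13.3 with IFNγ+PJ34. In 6 of 7 regions found in both lists IFNγ was below Control, 5 of them by over 1.5 times and 5 below the median ratio of all regions. The 7 include the Tmem50b promoter region at the edge of the window (chr16:91596014-91597806), whose Control and PJ34 summits lay beyond 50 kb; counted from peaks with their own summit in the window, it was 5 of 6 regions, all 5 by over 1.5 times. No region was found in IFNγ or IFNγ+PJ34 alone, whereas 4 were found in PJ34 alone and 3 in Control and PJ34. The stronger of these 3 (chr16:91512595-91513262) had a fold of 5.78 in Control and 5.81 in PJ34.

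**Figure D3:**
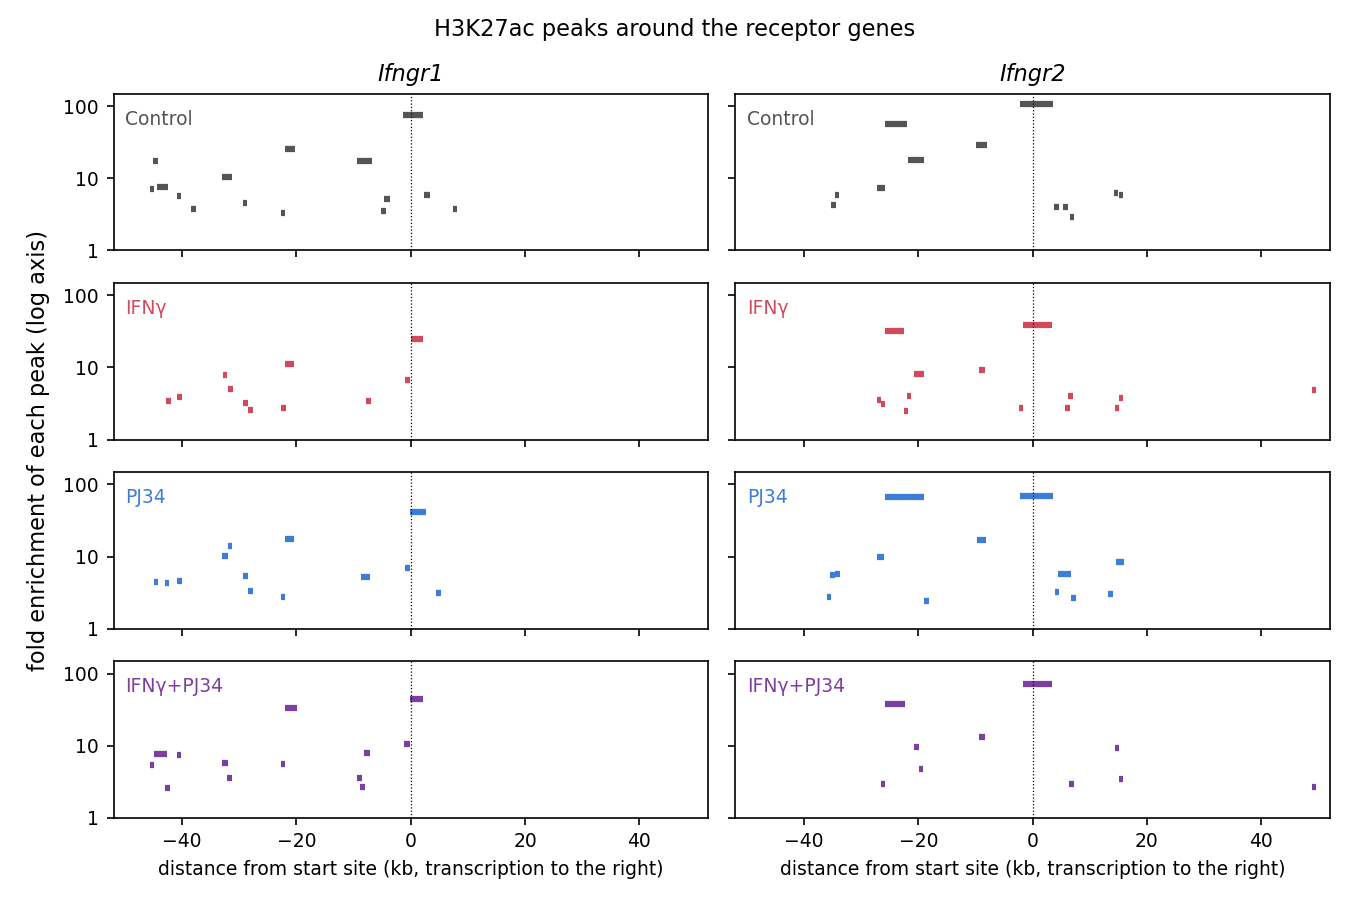
Each horizontal mark is a peak near Ifngr1 (left) or Ifngr2 (right), at its distance from the start site in kb and its fold enrichment (log axis), with 1 row per condition list; the dotted line is the start site. At Ifngr1 the Control list has more marks than the IFNγ list, and over the whole window the covered length was 17.7 kb in Control and 7.82 kb in IFNγ. The whole lists covered 52.6 Mb and 42.5 Mb.

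The kinase windows held the strongest sites that were present in IFNγ and absent from Control. Jak2 (ENSMUSG00000024789.13, chr19:29251828-29313080, plus strand) had 8 regions in its window. A region 29.5 kb upstream, intergenic and nearest to Jak2 (chr19:29222121-29223653), was absent from Control and had a fold enrichment of 16.8 with IFNγ, 4.73 with PJ34 and 11.6 with IFNγ+PJ34. Its peak was 1533 bp wide with IFNγ, 422 bp with PJ34 and 1153 bp with IFNγ+PJ34, and it lay at percentile 81.9 of the IFNγ list, the highest among the 20 peaks absent from Control. A weaker region 23.2 kb upstream (chr19:29228441-29229038) was also absent from Control, at 2.84 with IFNγ, 2.84 with PJ34 and 4.35 with IFNγ+PJ34. Its IFNγ and PJ34 peaks did not overlap each other and were joined only through the IFNγ+PJ34 peak. A further region 9.7 kb upstream (chr19:29241749-29242441) had 4.89 in Control, 4.35 in IFNγ and 11.1 in PJ34 and was absent from IFNγ+PJ34. All 4 Control peaks of the Jak2 window had an overlapping IFNγ peak.

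The promoter of Jak2 had a fold enrichment of 54.5 in Control, 65.7 with IFNγ, 73.0 with PJ34 and 36.3 with IFNγ+PJ34. Each single treatment stood above Control and the combination below it. Among all genes with a promoter peak Jak2 stood at percentile 86.6 in Control, 96.6 with IFNγ, 97.1 with PJ34 and 83.9 with IFNγ+PJ34.

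Jak1 (ENSMUSG00000028530.14, chr4:101152367-101265282, minus strand) encodes the kinase on IFNGR1. Its promoter had a fold enrichment of 66.3 in Control, 51.6 with IFNγ, 34.2 with PJ34 and 54.3 with IFNγ+PJ34. Only the PJ34 value was over 1.5 times below Control. An intergenic region 27.4 kb upstream (chr4:101291602-101294628) had 47.0 in Control, 42.6 with IFNγ, 49.6 with PJ34 and 78.1 with IFNγ+PJ34. It lay below the promoter in Control and in IFNγ, and above it in both lists with PJ34.

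Beyond that region lay a group of smaller ones. The regions 33.6 kb upstream (chr4:101298632-101299020; 6.10 in IFNγ, 6.80 in IFNγ+PJ34) and 34.1 kb upstream (chr4:101299101-101299688; 3.71 in IFNγ, 8.71 in IFNγ+PJ34) were found with IFNγ, with or without PJ34, and in neither list without IFNγ. Near members, 4 regions of 110 had this presence (3.64%, beside 2.29% of all regions). Within the gene, regions 10.8, 11.3 and 41.2 kb downstream of the start, all intronic, were absent from Control and present in the other lists, at folds from 2.62 to 4.21. Such regions, found everywhere except Control, made up 7 of 110 near the members (6.36%) and 1.35% of all regions. Of the 7, 3 lay near Jak1 and 2 near Jak2. Some were neighbours, so that they are fewer independent sites. All 5 IFNγ peaks absent from Control in the Jak1 window were found in IFNγ+PJ34, and 3 of them in PJ34.

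**Figure D4:**
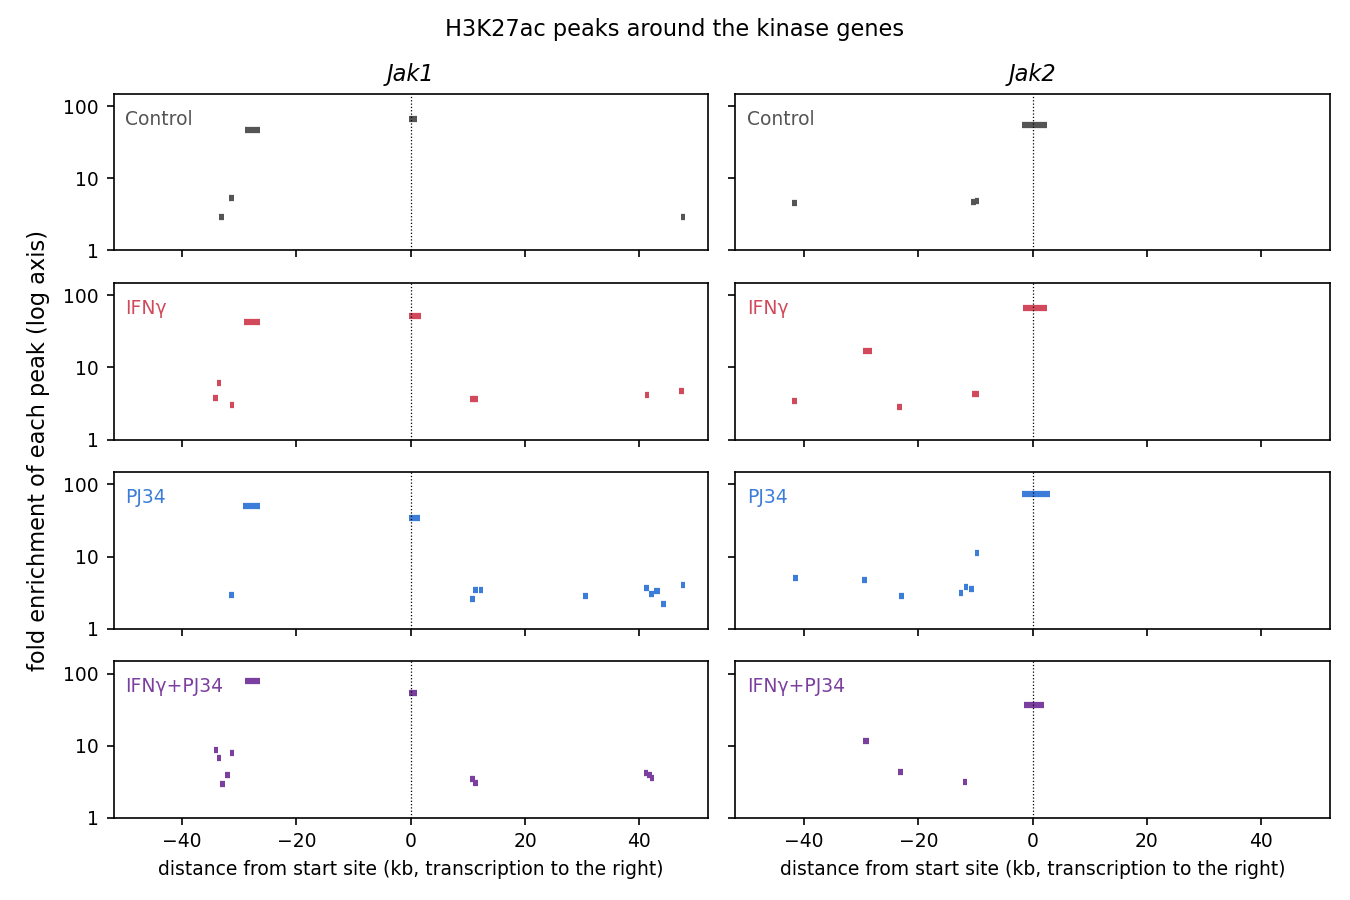
Peaks near Jak1 (left) and Jak2 (right) by distance from the start site in kb and fold enrichment (log axis), 1 row per condition list, with the start site as a dotted line. The site 29.5 kb upstream of Jak2 has no mark in Control and stands at 16.8 with IFNγ, 4.73 with PJ34 and 11.6 with IFNγ+PJ34.

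GAS matches were searched for in the 15 regions that held an IFNγ peak and no Control peak, and 5 of them held one. Of these, 4 are shown with 60 bases on either side, from the plus strand of GRCm38, and capitals mark TTCNNNGAA.
Jak2, 29.5 kb upstream, chr19:29222627-29222755: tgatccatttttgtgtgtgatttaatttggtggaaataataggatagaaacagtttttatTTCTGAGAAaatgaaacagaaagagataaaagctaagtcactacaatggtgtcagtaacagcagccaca
Jak1, intronic, 41.2 kb downstream, chr4:101223279-101223407: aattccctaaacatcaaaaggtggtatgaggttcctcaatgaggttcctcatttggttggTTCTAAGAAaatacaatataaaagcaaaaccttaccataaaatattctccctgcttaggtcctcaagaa
Stat6 window, in an intron of Nemp1, chr10:127672360-127672488: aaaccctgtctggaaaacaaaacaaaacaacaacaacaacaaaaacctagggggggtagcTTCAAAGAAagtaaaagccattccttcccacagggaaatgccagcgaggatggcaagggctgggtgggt
Stat3, intronic, 3.9 kb downstream, chr11:100934833-100934961: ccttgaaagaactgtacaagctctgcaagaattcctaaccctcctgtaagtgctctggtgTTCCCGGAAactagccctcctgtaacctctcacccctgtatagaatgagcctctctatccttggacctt
The match TTCTGAGAA near Jak2 lay 316 bp from the IFNγ summit. The match in the intronic Jak1 region, TTCTAAGAA, was 744 bp from the summit, TTCAAAGAA in the Stat6 window 516 bp, and TTCCCGGAA in Stat3 564 bp. Distances are from the summit of the highest-scoring IFNγ peak of the region. Other IFNγ peaks of the Stat6 window and Stat3 regions had summits nearer to the match, at chr10:127672226 and chr11:100934380. TTCCCGGAA is also a match to the stricter pattern TTCCNGGAA. Of these 4, the Jak2 match lay inside an IFNγ peak and an IFNγ+PJ34 peak, whereas the other 3 lay outside the IFNγ peaks of their regions, that of the intronic Jak1 region within a PJ34 peak and those of the Stat6 window and Stat3 within IFNγ+PJ34 peaks. Over all 110 regions there were 57 matches, or 0.357 per kb (exact Poisson 95% interval 0.271 to 0.463), beside 0.340 per kb over all regions. The exchanged pattern GAANNNTTC was found 32 times, 0.201 per kb, beside 0.255 over all regions. At least 1 GAS match was present in 31 of 110 regions (28.2%), beside 29.0% of all regions. Matches near the members were thus about as dense as elsewhere, and within 200 bp windows centred on the summits 1 of the 20 IFNγ peaks absent from Control held one (5.00%), beside 482 of all 6842 such peaks (7.04%).

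Stat3 (ENSMUSG00000004040.16, chr11:100885098-100939540, minus strand) had a promoter fold enrichment of 78.4 in Control, 89.8 with IFNγ, 67.7 with PJ34 and 80.5 with IFNγ+PJ34. Its IFNγ value was the highest of the 9 genes in that list, at percentile 99.9. A neighbouring region just upstream (chr11:100939703-100940728) had 10.8 in Control, 17.6 with IFNγ, 18.3 with PJ34 and 17.2 with IFNγ+PJ34, so that all treated lists stood above Control. An intronic region 7.8 kb downstream (chr11:100931027-100932040) had 10.7 in Control, 12.6 with IFNγ, 9.72 with PJ34 and 21.9 with IFNγ+PJ34. All 3 regions of the Stat3 window found in both IFNγ and Control were higher in IFNγ. The intronic region with the GAS match shown above (chr11:100934014-100935953) was absent from Control and weak elsewhere, at 3.29 with IFNγ, 3.73 with PJ34 and 3.94 with IFNγ+PJ34. Of the regions not found in all lists, the strongest were in IFNγ+PJ34: one 30.8 kb downstream in an intron (chr11:100908387-100908760; 5.85, IFNγ+PJ34 alone), which also lies within the Stat5a window, and one 11.5 kb downstream (chr11:100927567-100927990; 5.16 in Control, 4.61 in PJ34 and 5.57 in IFNγ+PJ34). A region 18.1 kb upstream, in an exon of Cavin1, ranked level with the latter, at 5.57 in IFNγ+PJ34 alone.

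Stat5a (ENSMUSG00000004043.14, chr11:100859351-100885169, plus strand) had nearly equal promoter values, 27.7 in Control, 25.9 with IFNγ, 29.1 with PJ34 and 28.7 with IFNγ+PJ34. Of the 15 regions in its window 12 were nearest to Stat5b, its neighbour and close relative, and 2 to Stat5a, so most of this window describes Stat5b. A Stat5b promoter region (chr11:100847584-100851363) had 31.7 in Control, 41.1 with IFNγ, 48.4 with PJ34 and 32.6 with IFNγ+PJ34. A further one, at another Stat5b start site (chr11:100821102-100823929), had 16.0 in Control, 25.9 with IFNγ, 18.9 with PJ34 and 34.4 with IFNγ+PJ34, with both IFNγ lists above both lists without it. The strongest regions not found in all lists lay in Stat5b introns: chr11:100846044-100846541 had 9.15 in IFNγ+PJ34 alone, and chr11:100846740-100847550 had 5.04 with IFNγ, 3.53 with PJ34 and 6.34 with IFNγ+PJ34 with no Control peak. None of the 11 Control peaks in the window was absent from IFNγ.

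Stat6 (ENSMUSG00000002147.18, chr10:127642986-127660957, plus strand) had a promoter fold enrichment of 66.7 in Control, 33.8 with IFNγ, 58.6 with PJ34 and 41.0 with IFNγ+PJ34. The lists without IFNγ stood above those with it. Less the median of all genes, the log2 ratio was -0.57 for IFNγ over Control and -0.15 for IFNγ+PJ34 over PJ34. Its window is dense, with 19 regions, of which 5 were nearest to Stat6 and 8 to Lrp1, whose 17739 bp wide Control peak (chr10:127589499-127607237) reached into it. In 9 of the 10 regions found in both lists IFNγ was below Control, 7 of them by over 1.5 times and also 7 below the median ratio of all regions, and 8 of 18 Control peaks were absent from IFNγ. A region 11.1 kb upstream (chr10:127630392-127632671) was nearest to Lrp1, at 10.8 kb. Its fold enrichment was 19.5 in Control, 5.23 with IFNγ, 4.59 with PJ34 and 16.3 with IFNγ+PJ34. Each treatment alone was thus far below Control and the combination near it. The strongest regions not found in all lists were 7.9 kb upstream (chr10:127634511-127635225; 6.70 in Control, 3.31 in PJ34) and in an intron of Nemp1 (chr10:127671722-127672576; 5.54 in IFNγ, 6.52 in IFNγ+PJ34).

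Stat2 (ENSMUSG00000040033.16, chr10:128270559-128292849, plus strand) had a promoter fold enrichment of 53.0 in Control, 40.8 with IFNγ, 29.6 with PJ34 and 46.2 with IFNγ+PJ34. PJ34 was the lowest list and Control the highest. Of the 8 regions in its window 1 was nearest to Stat2, its promoter; the others belonged to neighbours, among them the promoters of Timeless (44.6, 20.5, 36.3 and 21.1 in Control, IFNγ, PJ34 and IFNγ+PJ34) and Pan2 (51.2, 34.9, 47.7 and 34.2). No IFNγ peak in this window was absent from Control. The strongest regions not found in all lists were found in Control and IFNγ+PJ34, at 4.13 and 5.85 (chr10:128237342-128238064) and at 4.11 and 3.33 (chr10:128258706-128259841).

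Stat4 (ENSMUSG00000062939.11, chr1:51987148-52107189, plus strand) was the least marked of the 9. Its promoter peak lay at the later of its 2 start sites (chr1:52008598-52009217) and had a fold enrichment of 7.27 in Control, 6.59 with IFNγ, 5.96 with PJ34 and 3.67 with IFNγ+PJ34. The first 3 values were close and that of IFNγ+PJ34 was lower, at percentile 20.9 of its list. The other 4 regions of the window, all intronic, were absent from Control, and the stronger ones had folds of 3.10 in IFNγ and 5.21 in IFNγ+PJ34 (chr1:52057898-52058268) and of 3.13 in IFNγ and 4.15 in PJ34 (chr1:52012514-52012797).

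Over all regions near the members found in both lists, the log2 ratio of IFNγ over Control had a median of -0.40 (order-statistic 95% interval -0.81 to -0.14) over 48 regions, beside -0.36 over all 25925 shared regions. Of the 48, 4 were over 1.5 times higher and 19 over 1.5 times lower, 8.33% and 39.6%, beside 9.97% and 37.4% of all regions. By role, the median was -0.83 over the 15 receptor regions, -0.16 over the 8 kinase regions and -0.22 over the 25 STAT regions. Less the median of all regions these were -0.47, 0.20 and 0.14, so that the direction of the kinases and STATs turned with the centring and that of the receptors did not. In the same comparison under PJ34, IFNγ+PJ34 over PJ34, the median was 0.08 (-0.30 to 0.40) over 53 regions, beside -0.07 over 24313, with 18 over 1.5 times higher and 12 over 1.5 times lower, 34.0% and 22.6%, beside 24.6% and 26.7%. The role medians there were 0.08 for receptors (14 regions), 0.51 for kinases (10) and -0.09 for STATs (29). In both comparisons the STAT regions included many that were nearest to other genes. Both comparisons thus had medians near those of the whole lists, and the genes differed among themselves: 5 of 7 shared regions near Ifngr1 were over 1.5 times higher in IFNγ+PJ34 than in PJ34, while 0 of 7 near Ifngr2 were higher and 4 were lower, or 0 and 3 of 6 without the Tmem50b promoter.

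**Figure D5:**
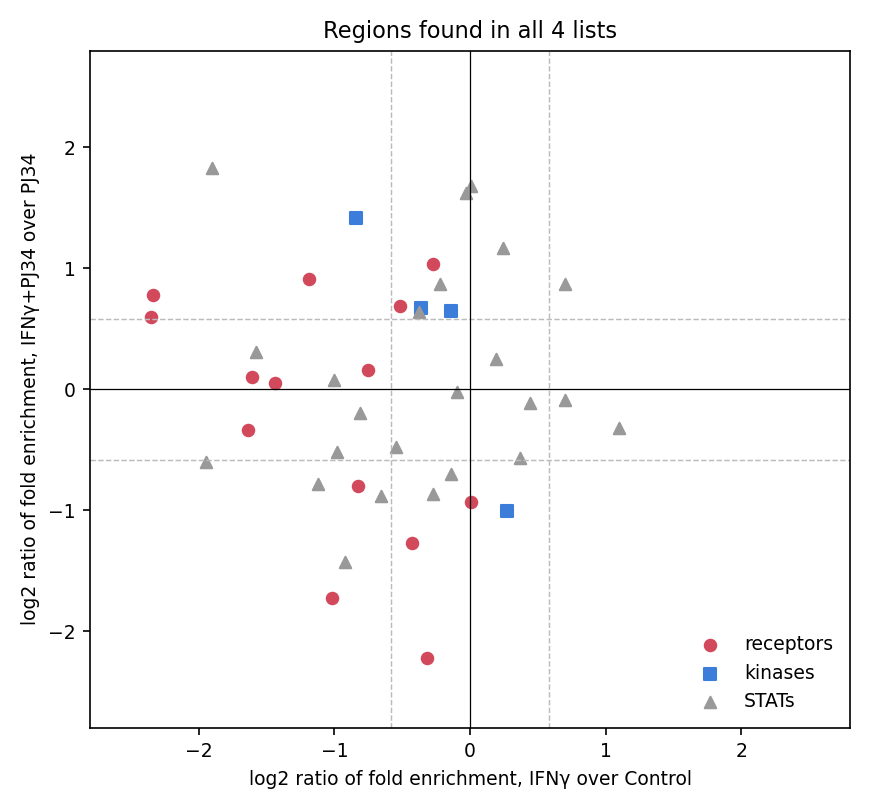
Log2 ratio of fold enrichment, IFNγ over Control (horizontal) and IFNγ+PJ34 over PJ34 (vertical), for the 42 regions near the 9 genes found in all 4 lists; symbols give the role of the gene and dashed lines a ratio of 1.5 in either direction. The upper left corner holds 5 regions, 3 near Ifngr1, 1 near Jak1 and 1 in the Stat6 window but nearest to Lrp1, and the lower right corner holds 0.

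A list of 29 other genes of cytokine signaling through JAKs and STATs was described in the same way, and all 29 matched the annotation. Of these, 27 had a promoter peak in all 4 lists, beside 45.4% of all protein-coding genes. An IFNγ peak absent from Control lay within 50 kb of 18, beside 25.9%, a share not matched for the number of peaks per window. For IFNγ over Control, 0 of 28 promoters were over 1.5 times higher and 11 over 1.5 times lower. The shares of all genes were 4.67% and 37.7%, and the median log2 ratio was -0.50, beside -0.41 over all genes. For PJ34 over Control 2 of 27 were higher and 10 lower, beside 8.83% and 19.4% of all genes. For IFNγ+PJ34 over IFNγ 3 were higher and 2 lower, beside 17.5% and 20.7%. For IFNγ+PJ34 over PJ34 5 were higher and 8 lower, beside 9.84% and 37.9%. Socs1, an inhibitor of JAK kinases, had a promoter fold enrichment of 62.8 in Control, 91.1 with IFNγ, 27.2 with PJ34 and 101 with IFNγ+PJ34, so that both IFNγ lists stood above both lists without it. Socs3, another inhibitor of the family, had 33.6 in Control, 46.5 with IFNγ, 49.8 with PJ34 and 65.6 with IFNγ+PJ34.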

How the data were processed

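Peak lists of H3K27ac ChIP-seq were analysed for 4 conditions. The authors aligned reads to mm10 with Bowtie 1.0.0, filtered them with Samtools 0.1.19 and Picard 1.127, called relaxed peaks per replicate against input with MACS 2.1.0 (p 0.01) and kept those found in both replicates. The deposited lists hold a score (10 to 1000), a fold enrichment over local background (a ratio), −log10 p-values and −log10 q-values, and a summit offset, as the authors' caller wrote them. Depth is not given in them, and inputs entered only as background. Groups came from the sample titles.

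Here, peaks were ranked within a list by score, ties by −log10 p, and assigned by summit to start sites of protein-coding transcripts (GENCODE M21, basic set, GRCm38). A region's fold in a list is the highest of its peaks there; a ratio past 1.5 was called. GAS matches were read from GRCm38.p6 and promoter windows from RefSeq. Functions were checked on simulated data (Python 3.11.15, pandas 2.3.3, scipy 1.17.1). The genes and lists were chosen with earlier results of these data known. All 9 genes were named, each with its promoter, its strongest region and up to 2 strongest regions not in all lists; further regions were chosen after their values were seen. Other distances, overlaps, thresholds and motifs were tried. The sequence around 1 GAS match is not reported here.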

Additional observations from a re-analysis of the deposited data

Results flagged for a closer look

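Regions near the 9 genes that moved in opposite directions with IFNγ in the absence and in the presence of PJ34 are listed here. With 1 list per condition, the difference was not tested. By presence, Control and IFNγ+PJ34 alone held 5 regions (4.55%, beside 3.64% of all regions), and IFNγ and PJ34 alone held 2 (1.82%, beside 2.70%).

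By fold enrichment, 5 of the 42 regions found in all 4 lists were over 1.5 times lower in IFNγ than in Control and over 1.5 times higher in IFNγ+PJ34 than in PJ34, where 2035 of 21468 regions did so over the genome. The opposite pattern was found at 0 regions near the members and at 422 overall. These calls were made without centring, though the median log2 ratio over all shared regions was -0.36 for IFNγ over Control and -0.07 for IFNγ+PJ34 over PJ34. Near Ifngr1, the log2 ratios without and with PJ34 were -2.34 and 0.78 at the region 44.7 kb upstream (chr10:19547030-19549620), -1.19 and 0.91 at the region 21.3 kb upstream, and -2.35 and 0.60 at the region 7.4 kb upstream. In the first of these regions, the Control value of 17.1 came from a peak (chr10:19547030-19547572) that the only IFNγ peak (chr10:19549402-19549619; 3.37) did not overlap. The Control peak that overlapped this IFNγ peak had a fold enrichment of 7.57. At the region 11.1 kb upstream of Stat6, which was nearest to Lrp1, the log2 ratios were -1.90 and 1.83. At the region 31.5 kb upstream of Jak1 (chr4:101296134-101296975) they were -0.84 and 1.42, and this -0.84 was the nearest of the 5 to the limit of 1.5 times. At all 5, the folds with IFNγ alone and with PJ34 alone were both below that of Control.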

How the results depend on the processing

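No paired analysis was possible because the files give a single peak list per condition, drawn jointly from its 2 ChIP samples; nor could a replicate be dropped. Of 73 other settings over 10 results, 2 of them (peaks with their own summit in the window) chosen after seeing the data, 60 stayed within the counting interval of the reported value (or 1.5 times a count), 12 moved outside it and 1 changed sign. In the higher-scoring 50% of each list, the share absent from Control was 8.33% for IFNγ peaks and 9.76% for PJ34 peaks, and 3 members had an IFNγ peak absent from Control. Peaks within 1 kb counted as shared gave 18.6% for PJ34 peaks absent from Control, 12.4% for IFNγ peaks absent from IFNγ+PJ34, 11.2% for IFNγ+PJ34 peaks absent from PJ34, and 5 members. Summits within 10 kb gave 3 members. An overlap of at least 50% gave 50.0% of Control peaks absent from IFNγ. Less the median over all shared regions, the median log2 ratio of IFNγ over Control was -0.04. That of IFNγ+PJ34 over PJ34 was -0.05 with summits within 100 kb. The stricter GAS pattern had 0.0313 matches per kb and the exchanged pattern 0.201. Apart from fewer peaks or a different pattern being counted, the cause was not tested. Depth is unknown, so whether a peak absent from a list was missed at that depth cannot be told.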

Other observations

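Ptpn6, which encodes the phosphatase SHP-1 that acts on JAK kinases, stood out among the 29 other signaling genes after its values were seen. Its promoter peak had a fold enrichment of 67.7 in Control and 8.76 in IFNγ. No peak summit lay within 1 kb of its start sites in PJ34 or IFNγ+PJ34. The promoter peaks in Control covered 5935 bp, and a broad peak with its summit further than 1 kb away was not counted in any list. Of the same 29 genes, Socs2 had a promoter peak in 1 list, PJ34, at a fold enrichment of 4.75.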
